A study of Mus musculus with 36 samples.

Results

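Gene interiors were compared here strand by strand for the lesions they carried. An interior was the body of a GRCm38 RefSeq protein-coding autosomal gene longer than 20 kb that overlapped no other gene, with 5 kb left out inside both gene ends. Of 9575 autosomal protein-coding genes over 20 kb, 4285 overlapped no other gene, and 3394 of these had a strand in the RefSeq promoter table used here and formed the set. The other 891, among them all 128 on chromosome 18, were not analysed here because that table gave no strand for them. The 3394 interiors covered 165.1 Mb, with 1718 genes on the plus strand and 1676 on the minus strand. By gene length, 2164 fell in the class 20-50 kb, 822 in 50-100 kb, 366 in 100-300 kb and 42 in the class over 300 kb. The shortest gene included was 20008 bp and the longest one left out by length was 20000 bp, while the longest included was 1022510 bp and the median 38905 bp.

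The lesions were single-strand breaks (SSBs), mapped with SSiNGLe, and apurinic or apyrimidinic sites (AP sites, nucleotides that lost their base), mapped with SSiNGLe-AP. The 24 libraries came from sperm, liver, heart, brain, bone marrow and mononuclear cells of peripheral blood (PBMCs), all from 24-month-old male C57BL/6J mice, with 2 samples per tissue and both assays on each sample. Only 2 mice are named as the source of all tissues, so that tissues shared animals, and p-values over 12 libraries treat those libraries as separate units. Red cells were lysed in the bone marrow, PBMCs came from a Ficoll gradient, and sperm were the motile cells of the epididymal tail, whose DNA was extracted with another kit than that of the other tissues. Each file listed nucleotide positions with a strand, and each position was counted once. Which strand that is, the one holding the lesion or the one that was read, is not given in the sources used here, and the strand on which the gene is annotated (its coding strand, with the sequence of the RNA) is called the gene's strand and its complement the other strand throughout. If the listed strand is the complement of the one holding the lesion, every ratio of lesions turns to its reciprocal, with directions and the order of tissues reversed.

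RNA polymerase reads the template strand of a gene, which is the complement of the coding strand, and a lesion in the template can stall it. Transcription-coupled repair is recruited by stalled polymerase and acts on the template strand, whereas the coding strand is exposed as a single strand within the transcription bubble and relies on general repair. SSBs arise from direct damage, topoisomerase cleavage and as intermediates of base excision repair, in which AP sites come before the break. Mature sperm are largely silent in transcription, and their chromatin was formed in germ cells that transcribed many genes.

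The SSB libraries held 225011 to 1041983 positions and the AP libraries 460719 to 963258. Interiors took 7.78% to 8.15% of the SSB positions, which is 18332 to 81222 positions per library, and 7.84% to 8.23% of the AP positions, which is 36844 to 77696. The 95% Wilson interval of a library's ratio had a half-width between 0.0165 and 0.0385 in SSB libraries and between 0.0146 and 0.0205 in AP libraries, which covers counting error only. Over whole libraries, plus-strand positions outnumbered minus-strand positions, the ratio being 1.01 to 1.02 in SSB libraries and 1.03 to 1.05 in AP libraries.

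SSBs were more numerous on the gene's strand of the interiors in every library. The ratio of positions on the gene's strand to the other strand was 1.12 and 1.18 in bone marrow, 1.18 and 1.15 in brain, 1.20 and 1.19 in heart, 1.24 and 1.21 in liver, 1.32 and 1.29 in PBMCs, and 1.27 and 1.31 in sperm. The mean was 1.22 ± 0.063 (SD, n = 12), and the Wilson interval lay above 1 in 12 of 12 libraries. On the log2 scale the mean was 0.29, with an adjusted p of 0.000814 over 10 ratios (exact two-sided sign-flip permutation test over 12 libraries, raw p = 0.000488, the smallest this design can give). With 1 value per tissue (n = 6) all 6 SSB means lay above 1, which gives the smallest raw p of that design, 0.03125 (exact sign-flip permutation test). After adjustment over the 10 ratios, which include those of AP sites, it did not pass (adjusted p = 0.0521, same test). Nor did the ratio of any class or interior minus flank in either assay. The differences between classes, along the gene and between assays passed at that smallest p.

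**Figure D1:**
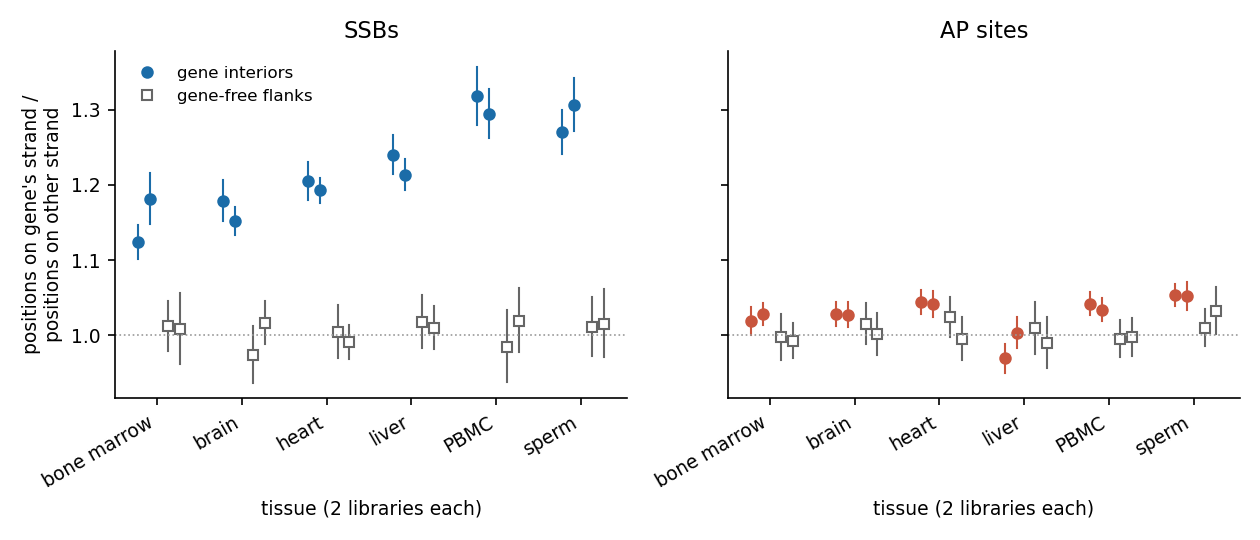
Ratio of positions on the gene's strand to the other strand in each library by tissue, for SSBs (left) and AP sites (right). Filled points are gene interiors, open squares the gene-free flanks of the same genes, and bars 95% Wilson intervals; SSB interiors sit between 1.12 and 1.32, apart from their flanks, while AP interiors sit between 0.969 and 1.05.

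The gene-free pieces beside the same genes, 5 to 25 kb outside their ends and clear of any gene, served as the background. These 7536 pieces of 77.1 Mb in all gave an SSB ratio of 1.01 ± 0.015 (SD, n = 12), between 0.974 and 1.02. The interior exceeded the flank by 0.28 on the log2 scale in 12 of 12 libraries (adjusted p = 0.000977, exact sign-flip permutation test). In lesions per kb, scaled to library size as 1000000000 × positions / (bp × positions of the library) (LPKM), SSB density in the interiors was 0.264 ± 0.0068 on the gene's strand and 0.216 ± 0.0074 on the other strand. The flanks had 0.187 ± 0.0059 and 0.186 ± 0.0063. Both strands of the interiors were thus denser than the flanks, each in 12 of 12 libraries, and the gene's strand stood further above them.

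AP sites showed a far smaller difference between the strands. Their ratio was 1.018 and 1.028 in bone marrow, 1.028 and 1.027 in brain, 1.044 and 1.041 in heart, 0.969 and 1.003 in liver, 1.042 and 1.034 in PBMCs, and 1.053 and 1.052 in sperm. The mean was 1.028 ± 0.023 (SD, n = 12), above 1 in 11 of 12 libraries, or 0.04 on the log2 scale (adjusted p = 0.00671, exact sign-flip permutation test). The Wilson interval lay above 1 in 10 libraries and below 1 in 1, liver replicate 1. AP density was 0.246 ± 0.0046 LPKM on the gene's strand and 0.239 ± 0.0033 on the other strand, against 0.182 ± 0.0031 and 0.181 ± 0.0041 in the flanks. The interior exceeded the flank by 0.033 on the log2 scale in 11 of 12 libraries (adjusted p = 0.0107, exact sign-flip permutation test). Without sperm and PBMCs, or with the median over interiors in place of pooled positions, the AP ratio no longer passed, at 0.028 (adjusted p = 0.107) and 0.011 (adjusted p = 0.562) by the same exact test. That median took only interiors with at least 10 positions in a library and added 0.5 to each count, so that the interiors differed between libraries. With positions summed over 12 libraries, the median log2 ratio of the 3214 interiors tested was 0.055.

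Matched by sample, the SSB ratio exceeded the AP ratio by 0.25 ± 0.073 on the log2 scale (SD, n = 12), in 12 of 12 samples (p = 0.000488, exact sign-flip permutation test). Both ratios differed with gene orientation. Over whole libraries plus-strand positions also outnumbered minus-strand positions, at 1.01 to 1.02 for SSBs and 1.03 to 1.05 for AP sites. The part of this excess in the split by orientation was not tested. Genes on the plus strand had an SSB ratio of 1.25 ± 0.066 and genes on the minus strand 1.20 ± 0.062, each above 1 in 12 of 12 libraries. For AP sites the plus-strand genes had 1.07 ± 0.026, above 1 in 12 of 12 libraries, and the minus-strand genes 0.989 ± 0.022, above 1 in 5 of 12. Averaging both orientations with equal weight gave a log2 ratio of 0.037 for AP sites (adjusted p = 0.00732, exact sign-flip permutation test), close to the pooled value.

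The SSB ratio differed among tissues. Bone marrow had the lowest mean, 1.15 ± 0.041, followed by brain at 1.17 ± 0.019, heart at 1.20 ± 0.0083, liver at 1.23 ± 0.019, sperm at 1.29 ± 0.025 and PBMCs at 1.31 ± 0.017 (SD, n = 2 each). Bone marrow and brain overlapped, as did sperm and PBMCs, whereas the liver libraries lay above the heart libraries and the heart libraries above the brain libraries. The Wilson intervals of the nearest liver and heart libraries overlapped, as did those of the nearest heart and brain libraries, and pairs of tissues were not tested. Across the 6 tissues the F statistic was 13.6 (adjusted p = 0.0103 over 10 comparisons, exact permutation test over 10395 pairings). By class it passed up to 300 kb and not in genes over 300 kb (F 1.99, adjusted p = 0.223, exact permutation test). The density on the gene's strand was highest in PBMCs at 0.277 LPKM and lowest in heart at 0.258, while on the other strand it was highest in bone marrow at 0.227 and lowest in sperm at 0.207. The PBMC and sperm libraries held few SSB positions, 225011 to 374964 each, and in each of the 6 tissues the library with fewer SSB positions had the higher ratio. Bone marrow replicate 2 (236000 positions) and brain replicate 1 (361454) lay in the same range of depth, each with a ratio of 1.18. The part of depth in the order of tissues was not tested beyond thinning. With all libraries thinned to 225011 positions F was 7.83 (adjusted p = 0.0354, exact permutation test), and without PBMCs and sperm it was 3.56 and no longer passed (adjusted p = 0.177, exact permutation test).

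Sperm exceeded the other tissues by 0.092 on the log2 scale for SSBs, which did not pass (p = 0.136, exact permutation test over 66 arrangements, of which the smallest possible p is 0.0152). PBMCs alone had SSB ratios that overlapped those of sperm. With PBMCs left out, a choice made after seeing the data, sperm stood 0.12 above the remaining tissues (adjusted p = 0.0444, exact permutation test). That choice left sperm with the highest ratios, so that this p cannot serve as a test. Sperm and its extraction kit cannot be told apart in these samples. For AP sites sperm stood 0.041 above the others (p = 0.106, exact permutation test). Liver, the tissue with the lowest AP ratios, was also left out after seeing the data. Sperm then stood 0.027 above the rest (adjusted p = 0.0444, exact permutation test), which cannot serve as a test either.

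AP ratios differed among tissues as well, with F at 9.36 (adjusted p = 0.00577, exact permutation test over 10395 pairings). Liver was lowest, 0.986 ± 0.024, and sperm highest, 1.053 ± 0.0012, with bone marrow at 1.023 ± 0.0070, brain at 1.028 ± 0.00042, PBMCs at 1.038 ± 0.0053 and heart at 1.042 ± 0.0017 (SD, n = 2 each). The order of tissues was not that of SSBs, where liver ranked above heart, brain and bone marrow. With the median over interiors in place of pooled positions F was 0.806 and the call was lost (adjusted p = 1, exact permutation test). By class, the AP difference among tissues did not pass in genes of 20-50 kb (F 1.82, adjusted p = 0.185, exact permutation test). The spread between the liver libraries was wide, and F rose to 67.5 without liver replicate 2 and to 26.3 without liver replicate 1.

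The longest class differed from the shortest in opposite directions for SSBs and AP sites. The SSB means of the classes up to 300 kb were all 1.23. For SSBs the ratio was 1.23 ± 0.063 in genes of 20-50 kb, 1.23 ± 0.078 in 50-100 kb, 1.23 ± 0.063 in 100-300 kb and 1.17 ± 0.054 over 300 kb (SD, n = 12), above 1 in 12 of 12 libraries in each class (adjusted p = 0.000814 each, exact sign-flip permutation test). The longest class lay below the shortest by -0.072 on the log2 scale, with 1 of 12 libraries going the other way (adjusted p = 0.00146, exact sign-flip permutation test). For AP sites the ratio was 1.014 ± 0.025, 1.028 ± 0.032, 1.034 ± 0.026 and 1.057 ± 0.031 from the shortest to the longest class. The shortest class did not pass (adjusted p = 0.0889, exact sign-flip permutation test, above 1 in 10 of 12 libraries). The longest AP class exceeded the shortest by 0.061 in 12 of 12 libraries (adjusted p = 0.000977, exact sign-flip permutation test). At equal depth neither difference passed, with -0.05 for SSBs and 0.052 for AP sites (adjusted p = 0.119 and 0.082, exact sign-flip permutation test). These tests took libraries as units, and every library measured the same 42 genes over 300 kb. The pooled SSB ratios of those genes ran from 0.621 in Skint5 to 1.42 in Ptprk. Spread over genes did not enter the p-values, so that an effect of gene length itself was not tested.

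**Figure D2:**
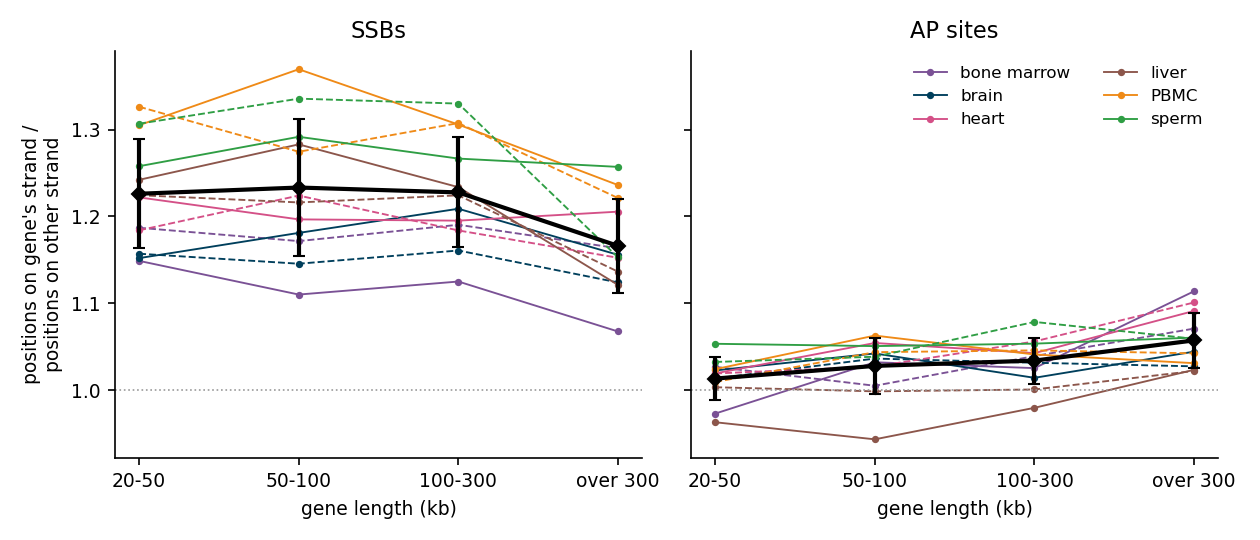
Ratio of the gene's strand to the other strand by gene length class for SSBs (left) and AP sites (right). Coloured lines are libraries (solid replicate 1, dashed replicate 2) and black diamonds the mean with SD of 12; the SSB mean falls from 1.23 to 1.17 in genes over 300 kb, and the AP mean rises from 1.014 to 1.057.

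The longest class was small and uneven in orientation, with 27 plus-strand and 15 minus-strand genes. Within it, AP sites had a ratio of 1.10 ± 0.046 in plus-strand genes and 0.992 ± 0.039 in minus-strand genes. In the shortest class those values were 1.04 ± 0.034 and 0.984 ± 0.023. With both orientations weighted equally, the AP difference between longest and shortest class was 0.044 (adjusted p = 0.00635, exact sign-flip permutation test). The densities also fell with length, from 0.283 LPKM on the gene's strand and 0.231 on the other strand for SSBs in the shortest class to 0.209 and 0.179 in the longest.

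Along the gene, the strand difference was widest near the start. Interiors were divided into 5 equal parts from the gene's start to its end, and the SSB ratio fell through them from 1.29 ± 0.095 to 1.26 ± 0.083, 1.23 ± 0.074, 1.19 ± 0.057 and 1.16 ± 0.047 (SD, n = 12). The part nearest the start exceeded the part nearest the end by 0.16 on the log2 scale in 12 of 12 libraries (adjusted p = 0.000488, exact sign-flip permutation test). AP sites fell from 1.06 ± 0.034 to 1.01 ± 0.021, a difference of 0.073 in 12 of 12 libraries (adjusted p = 0.000488, same exact test). With the median over those parts that held at least 10 positions in a library, the difference was 0.034 and did not pass (adjusted p = 0.125, same exact test). Densities were higher in the last part than in the first on both strands, with the larger difference on the other strand. For SSBs the gene's strand had 0.262, 0.256, 0.260, 0.262 and 0.282 LPKM from the first part to the last, higher than at the start mainly in the last part. The other strand had 0.203, 0.203, 0.212, 0.221 and 0.243. For AP sites the gene's strand went from 0.231 in the first part to 0.276 in the last, and the other strand from 0.218 to 0.273.

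**Figure D3:**
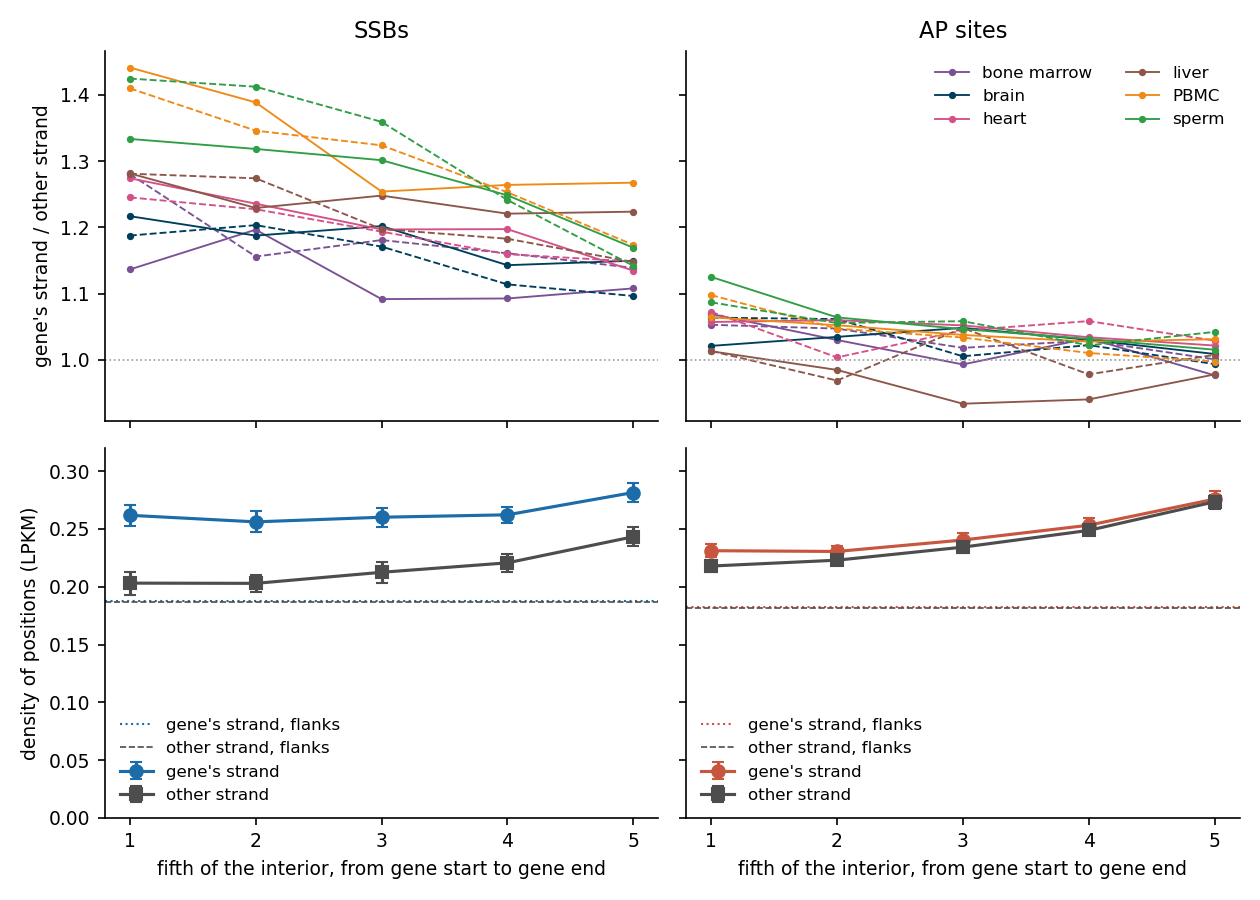
Top, ratio of the gene's strand to the other strand in 5 equal parts of the interiors from gene start to gene end, by library (solid replicate 1, dashed replicate 2). Bottom, density on each strand in LPKM (mean and SD of 12 libraries) with the flanks as horizontal lines. The SSB ratio falls from 1.29 to 1.16, and both SSB densities are higher in the last part than in the first.

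The fall along the gene was present in each length class and widest in the longest. In genes of 20-50 kb the SSB ratio went from 1.26 ± 0.076 in the part nearest the start to 1.19 ± 0.071 in the part nearest the end, with 10 of 12 libraries falling. In genes over 300 kb it went from 1.30 ± 0.14 to 1.03 ± 0.080, with 11 of 12 libraries falling, and the end part was above 1 in 8 of 12 libraries only. The start parts of short and long genes therefore had similar ratios, and the classes parted toward the gene end. By distance from the start, the SSB ratio was 1.26 ± 0.081 at 5 to 20 kb, 1.23 ± 0.086 at 20 to 50 kb, 1.23 ± 0.058 at 50 to 100 kb, 1.19 ± 0.050 at 100 to 200 kb and 1.08 ± 0.044 at 200 to 1000 kb. Only longer genes reach the farther distances, so that these values do not follow the same genes. AP sites in genes over 300 kb went from 1.14 ± 0.072 to 1.02 ± 0.051 between the start and the end part, with 11 of 12 libraries falling. By distance from the start, AP ratios stayed between 1.013 and 1.039 with no steady fall.

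Gene by gene, most interiors leaned to the gene's strand. For SSBs 2520 of 3394 interiors had more positions on the gene's strand, 742 on the other strand and 132 as many on both, 15 of which had no position. The share with more on the gene's strand was 70.0% in genes of 20-50 kb, 80.3% in 50-100 kb, 84.4% in 100-300 kb and 88.1% over 300 kb, while the median number of positions rose from 54 to 931. For AP sites 1909 had more on the gene's strand and 1353 on the other strand. Each gene with at least 24 positions in the 12 libraries was then tested for a ratio other than 1. For SSBs 3055 interiors passed that limit, and 130 (4.26%) had an adjusted p under 0.05 (edgeR's quasi-likelihood test with Benjamini-Hochberg adjustment over all 8321 genes tested). The background over all genes tested was 1.72%, and it was 0.247% in the 5266 genes outside the set, counted over their whole length. Those genes were not matched to the set in length or number of positions, so that the shares do not compare strand bias alone. On simulated counts the test recovered 4.5% of genes set to a 1.5-fold ratio and 51% at 2-fold. The simulated counts were lower than the real ones, and the genes set to a ratio had at least 120 real positions. These shares are thus not the recovery of the test on the real counts, and how many genes the calls miss is not known.

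**Figure D4:**
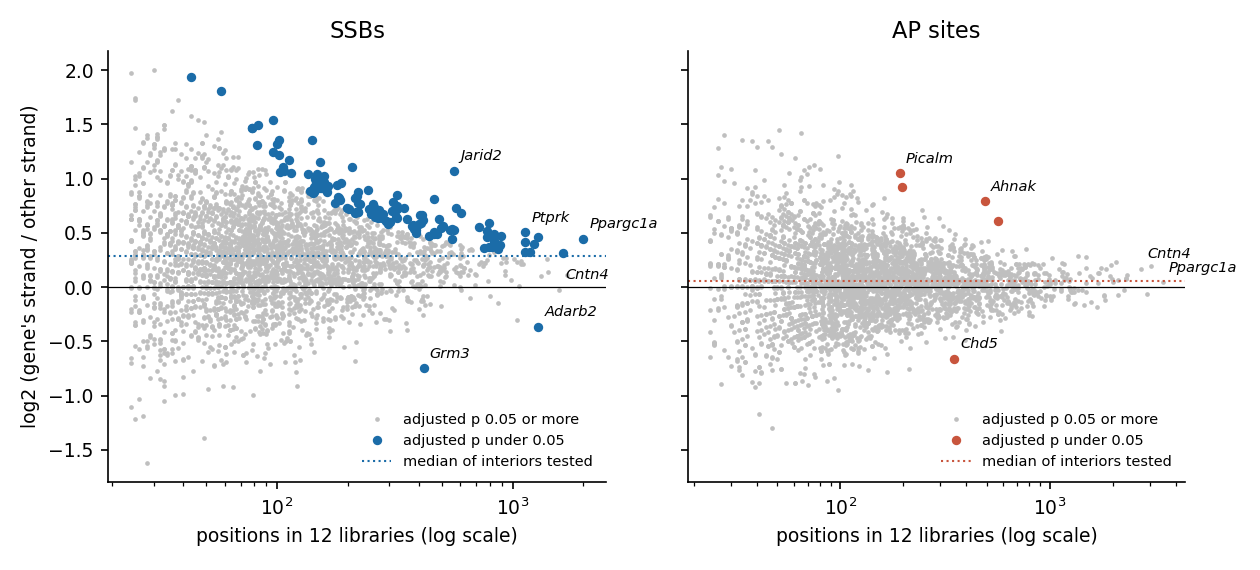
log2 of the ratio of the gene's strand to the other strand for each interior tested, against its positions in 12 libraries (log axis), for SSBs (left) and AP sites (right). Coloured points pass an adjusted p of 0.05 and the dotted lines are the medians, 0.29 for SSBs and 0.055 for AP sites; of the 130 SSB points that pass, 128 lie above 0.

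Of the 130 SSB calls, 128 (4.19%) were on the gene's strand, against 1.69% of all genes tested, and 2 (0.0655%) on the other strand, against 0.024%. The median log2 ratio over the interiors tested was 0.29, with quartiles at 0.038 and 0.53. Calls took 16 of 1836 interiors tested in the class 20-50 kb, 37 of 811 in 50-100 kb, 66 of 366 in 100-300 kb and 11 of 42 over 300 kb, and plus-strand genes gave 79 of the 128. At an unadjusted p under 0.05 there were 670 (21.9%), against 12.5% of all genes tested. The count depended on the scaling between strands. With TMM factors, which test a gene against the ratio of the other genes, the median was 0.12 and 12 interiors were called, 8 on the gene's strand and 4 on the other strand. Leaving out sperm gave 76 calls, leaving out sperm and PBMCs 47, and leaving out heart replicate 2, the deepest SSB library, 81.

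Jarid2, a partner of the Polycomb repressive complex 2, had the smallest p for SSBs. Its gene on chromosome 13 (44730774 to 44921643, plus strand) carried 384 SSB positions on the gene's strand and 182 on the other strand. The ratio per library ran from 0.833 in brain replicate 1 through a median of 2.41 to 3.89 in liver replicate 1, with the gene's strand higher in 11 of 12. The log2 ratio was 1.07 ± 0.13 (SE; edgeR quasi-likelihood, adjusted p = 2.65e-13), and it passed under all 22 alternatives tried, between 0.90 and 1.17.

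Ppargc1a, a coactivator of mitochondrial biogenesis, held the most SSB positions of any interior. On chromosome 5 (51454249 to 52115853, minus strand) it had 1152 on the gene's strand and 844 on the other strand. Its ratio per library ran from 1 in heart replicate 1 through a median of 1.33 to 2.13 in PBMC replicate 1, with the gene's strand higher in 11 of 12 and equal in the other. The log2 ratio was 0.45 ± 0.069 (SE; edgeR, adjusted p = 2.94e-07). For AP sites the same interior, again the one with the most positions, had 1759 and 1702, a log2 ratio of 0.046 ± 0.057 (SE; edgeR, adjusted p = 0.939).

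The next genes by p were also higher on the gene's strand in at least 11 of 12 libraries. Unc79, a component of the NALCN sodium leak channel complex, had 358 and 215 SSB positions (log2 ratio 0.73 ± 0.12, SE). Phlpp1, a phosphatase that acts on Akt, had 297 and 169 (0.81 ± 0.14). Ptprk, a receptor-type tyrosine phosphatase, had 666 and 469 (0.50 ± 0.089), and Ap3b1, a subunit of the AP-3 adaptor of vesicle sorting, 374 and 233 (0.68 ± 0.12). Their adjusted p was 9.55e-06 for Unc79 and Phlpp1 and 2.1e-05 for Ptprk and Ap3b1 (edgeR quasi-likelihood).

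The 2 interiors called on the other strand were those of Grm3 and Adarb2. Grm3, a metabotropic glutamate receptor gene on chromosome 5 (9485236 to 9725352, minus strand), had 156 SSB positions on the gene's strand and 263 on the other strand. Its ratio per library ran from 0.32 in heart replicate 1 through a median of 0.598 to 1.04 in brain replicate 2, with the other strand higher in 11 of 12. Its log2 ratio was -0.75 ± 0.14 (SE; edgeR, adjusted p = 0.000191) and passed under all 22 alternatives. Adarb2, a member of the adenosine deaminase family without known editing activity, on chromosome 13 (8202526 to 8768762, plus strand), had 563 and 725. Its ratio ran from 0.432 in sperm replicate 2 through a median of 0.792 to 1.13 in bone marrow replicate 2, with the other strand higher in 11 of 12. Its log2 ratio was -0.37 ± 0.084 (SE; edgeR, adjusted p = 0.00339), and it did not pass without sperm or without sperm and PBMCs (highest edgeR adjusted p over 22 alternatives 0.152).

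In the 3 shorter classes, the interiors with the most SSB positions were those of Phldb1, Rxra and Tbc1d22a. Phldb1 (20-50 kb) had 144 and 130, Rxra (50-100 kb), a retinoid X receptor, 298 and 239, and Tbc1d22a (100-300 kb) 701 and 531. Only Tbc1d22a of these passed, with a log2 ratio of 0.40 ± 0.085 (SE; edgeR, adjusted p = 0.0014), and its ratio exceeded 1 in 12 of 12 libraries, from 1.02 to 1.93. With TMM factors the calls of Tbc1d22a, Ppargc1a and Ptprk were lost (edgeR adjusted p = 0.351, 0.0518 and 0.0892).

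For AP sites 5 of 3214 interiors tested (0.156%) were called, 4 (0.124%) on the gene's strand and 1 (0.0311%) on the other strand. Over all 9970 genes tested the share was 0.0502%, of which 0.0401% on the gene's strand and 0.01% on the other strand. On simulated AP counts, again lower than the real ones, the test recovered 10.5% of genes set to a 1.5-fold ratio. That share is not the recovery on the real counts either. At an unadjusted p under 0.05 there were 292 interiors (9.09%), against 6.49% of all genes tested, and DESeq2 called 1. Ahnak, a large scaffold protein gene on chromosome 19 (8989284 to 9076935, plus strand), had 311 and 179 AP positions, with a ratio per library from 1.27 in liver replicate 2 through a median of 1.88 to 2.21 in PBMC replicate 2 and the gene's strand higher in 12 of 12. Its log2 ratio was 0.79 ± 0.13 (SE; edgeR, adjusted p = 2.07e-05). Arhgap18 had 342 and 224 (0.61 ± 0.12), Picalm, a clathrin assembly protein, 130 and 62 (1.05 ± 0.22), and Smad9, a transcription factor of BMP signalling, 130 and 68 (0.92 ± 0.21). Chd5, a chromatin remodeller known from neurons, had 135 and 214 (-0.66 ± 0.16, SE; edgeR, adjusted p = 0.0461), with the other strand higher in 12 of 12 libraries. All 5 are plus-strand genes, and the test, with equal library sizes for both strands, did not take out the excess of plus-strand positions. None of these genes passed in all alternatives: Ahnak was lost without sperm and PBMCs, while Smad9 and Chd5 were each lost in 14 of 22.

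Within single interiors no difference in the ratio among tissues passed, with 0 of the 3055 interiors tested in the SSB libraries and 0 of 3214 in the AP libraries by edgeR's quasi-likelihood test and by DESeq2. At an unadjusted p under 0.05 there were 68 and 105, which is 2.23% and 3.27% of those tested, against 1.25% and 2.19% of all genes tested. DESeq2 had 16 and 8 at that unadjusted level. On simulated data, with counts lower than the real ones, this test seldom called a difference set in a single tissue. The counts of 0 do not show that single interiors were alike among tissues. The smallest p for SSBs belonged to Bcl11b, a zinc finger factor of T cells and neurons (edgeR's quasi-likelihood test over 12 libraries, Benjamini-Hochberg adjusted p = 1). Its ratio over all libraries had passed, with a log2 ratio of 0.49 ± 0.14 (SE; edgeR, adjusted p = 0.0242), but it kept that call in 12 of 22 alternatives only and lost it with TMM factors, with DESeq2 and without sperm, among others (highest adjusted p 0.467). Its SSB positions on the gene's strand and the other strand were 10 and 29 in bone marrow replicate 1 and 11 and 13 in replicate 2, against 12 and 7 in PBMC replicate 1 and 16 and 4 in replicate 2. Trim9, a ubiquitin ligase of neurons, came next (edgeR's quasi-likelihood test, adjusted p = 1), with 3 and 18 in sperm replicate 1, 4 and 10 in replicate 2, and 12 and 11 and then 25 and 16 in the brain replicates. The 2 smallest for AP sites, Rcbtb1 and Otog, did not pass either (edgeR's quasi-likelihood test, adjusted p = 1 each).

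The 42 interiors of genes over 300 kb held 201 to 1996 SSB positions each. Of these interiors 37 had more SSBs on the gene's strand (88.1%, against 74.2% of all interiors) and 5 had more on the other strand. The calls were 10 and 1, against 4.19% and 0.0655% of all interiors tested and 1.69% and 0.024% of all genes tested. These interiors had a median of 931 positions, against 78 over all interiors, so that the shares do not compare strand bias alone. The mean SSB ratio of this class was the lowest, 1.17. The pooled ratios ran from 0.621 in Skint5 to 1.42 in Ptprk. Cntn4, a neuronal contactin and the longest gene of the set, had 783 and 797 SSB positions, a log2 ratio of -0.024 ± 0.076 (SE; edgeR, adjusted p = 0.944), and the strands were each higher in 6 of 12 libraries. For AP sites 30 of the 42 had more on the gene's strand (71.4%, against 56.2% of all interiors) and 11 on the other strand. None was called by edgeR's quasi-likelihood test, where 0.156% of all interiors tested were.

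**Figure D5:**
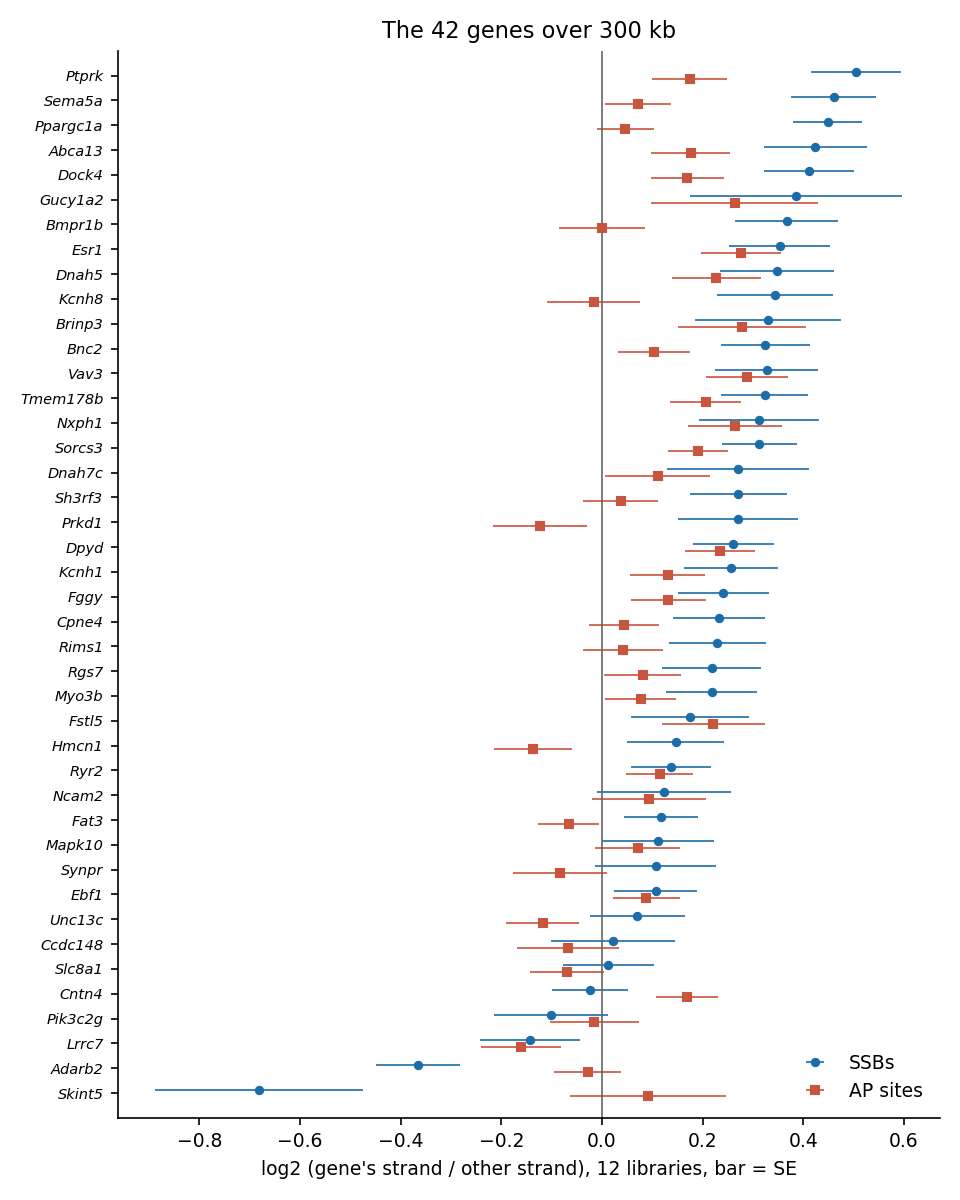
log2 of the ratio of the gene's strand to the other strand for the 42 genes over 300 kb, ordered by the pooled SSB ratio, with SSBs as circles and AP sites as squares (edgeR estimate, bar = SE, 12 libraries). SSB values run from Skint5, pooled ratio 0.621, to Ptprk, 1.42.

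Genes known to act in one kind of tissue were described as lists, by counts and without a test. The lists were chosen with earlier results of these data known. The median log2 SSB ratio of all interiors tested was 0.29, and 4.26% of them were called. At that share, no call or a single call in a list this small says little about the list. Neuronal genes had a median of 0.078 over 4 members, of which Cacna1b, a calcium channel subunit named here after its value was seen, was called on the gene's strand (332 and 230 positions). Cardiac genes had 0.14 over 11 members with 1 call, Ppargc1a. Ryr2, the cardiac ryanodine receptor, had 742 and 674 SSB positions (log2 ratio 0.14 ± 0.080, SE; edgeR, adjusted p = 0.496). Blood and immune genes had 0.12 over 18 members with no call, hepatocyte genes 0.21 over 14 with none and spermatogenesis and sperm genes 0.23 over 16 with none. Each of these lists thus had a median below that of all interiors.

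Broadly expressed genes stood the other way, with a median of 0.54 over 18 members. Of these, 17 lay above 0, where 74.2% of all interiors had more SSBs on the gene's strand. Of all interiors tested, 4.19% were called on that strand. The 3 calls, all on the gene's strand, were Smarca4 and Crebbp, a chromatin remodelling ATPase and a histone acetyltransferase, and Nup155, a nuclear pore component named here after its value was seen. Smarca4 had 176 and 115 SSB positions (log2 ratio 0.61 ± 0.17, SE), Crebbp 175 and 114 (0.61 ± 0.17) and Nup155 72 and 28 (1.32 ± 0.32), with adjusted p of 0.0312, 0.0312 and 0.00614 (edgeR quasi-likelihood). Smarca4 and Crebbp lost the call in 11 and 12 of 22 alternatives. Pooled over the list, the SSB ratio was 1.22 to 2.04 per library with a median of 1.58, on 111 to 465 positions. For AP sites the list had a median log2 ratio of 0.26 against 0.055 for all interiors, with no call (0.156% of all interiors tested were called). The other lists had AP medians of 0.05 (neuronal), 0.079 (cardiac), -0.049 (hepatocyte), 0.031 (blood and immune) and 0.075 (spermatogenesis and sperm), on both sides of 0.055, with no call either.

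The ratio of a list in its own tissue did not stand clear of that in the others. Neuronal interiors had SSB ratios of 1.01 and 1.10 in brain, against 0.972 to 1.35 in the other tissues. Cardiac interiors had 1.01 and 1.19 in heart against 0.936 to 1.20. Hepatocyte interiors had 1.21 and 1.26 in liver against 0.854 to 1.5. Sperm-related interiors had 1.24 and 1.34 in sperm against 1.01 to 1.40, and blood and immune interiors 0.994 to 1.22 in bone marrow and PBMCs against 0.988 to 1.68. All of these groups overlapped.

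The other list members with the most positions gave values on both sides of the median. For SSBs, Nrcam, a neuronal cell adhesion molecule, had a log2 ratio of 0.18, Dpyd of pyrimidine breakdown 0.26, Abca1 of cholesterol export 0.39, Ebf1 of the B cell lineage 0.11, Erg, a haematopoietic and endothelial factor, 0.22, and the axonemal dyneins Dnah5 and Dnah7c 0.35 and 0.27. Their adjusted p was between 0.0619 and 0.653 (edgeR quasi-likelihood). Dnah7c has near-identical copies, so that its positions are uncertain. For AP sites Dpyd had 0.23 (1119 and 951 positions) and Erg -0.049 (622 and 643), and the interior of Ttn, the titin gene with the most AP positions in 100-300 kb, had 1090 and 1040 (0.07). Those with the most AP positions in the shorter classes, Adcyap1r1 with 206 and 186 and Capzb with 420 and 430, did not pass either (edgeR adjusted p = 0.909 and 0.98).

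The SSB ratio was above 1 on each of the 18 autosomes with members in 12 of 12 libraries, with means from 1.18 on chromosome 16 to 1.30 on chromosome 10. AP means were between 0.983 on chromosome 8 and 1.07 on chromosome 19, with chromosomes 8 and 17 below 1. Across interiors with at least 120 positions, the log2 SSB ratio of the libraries numbered 1 and that of the libraries numbered 2 had Pearson's r = 0.385 over 1104 interiors, and sperm against the other tissues r = 0.336. For AP sites those values were 0.226 and 0.17 over 1742 interiors, and SSBs against AP sites gave 0.17 over 1102. These describe genes, which are not independent replicates, at a depth where counting error is large.

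Interiors were also grouped by the density of the other assay, which the ratio does not use. SSB ratios were 1.29 ± 0.082 in the interiors of the lowest AP density quartile and 1.19 ± 0.067 in those of the highest, with 12 of 12 libraries falling. AP ratios went from 1.11 ± 0.041 in the lowest SSB density quartile through 1.06 ± 0.031 and 1.03 ± 0.028 to 0.971 ± 0.024 in the highest, again in 12 of 12 libraries. The mean AP ratio thus lay above 1 in the lower quartiles of SSB density per bp and below 1 in the highest. What relates that density to the AP ratio was not tested. Median gene lengths were 39.0 kb in the lowest and 34.1 kb in the highest SSB quartile.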

How the data were processed

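The files deposited by the authors list 1 nucleotide position per line with a strand and a raw count of reads, 1 file per library, not normalized. The submitters' processing notes name RSEM 1.2.28 and the builds GRCm38 and mm10 without a role, while aligner, filters and the meaning of the strand are not given in the sources used here. Each position was counted once. Depth is given in the report, and intervals cover counting error only. The genes and lists were chosen with earlier results of these data known. Ratios were tested over 12 libraries by two-sided exact sign-flip tests and across tissues by exact permutation tests, with Benjamini-Hochberg adjustment within families. Single genes with at least 24 positions were tested on the counts of positions per strand with edgeR 4.0.16 (quasi-likelihood, library and strand as terms, library sizes equal for both strands of a library), with DESeq2 1.42.0 as an alternative, after tests on simulated data. Named were the genes of smallest p in each direction, those of smallest p across tissues, those with the most positions per class and the list members with the most positions. Python 3.11.15, scipy 1.17.1 and R 4.3.3 were used. The labels do not say whether the numbers 1 and 2 stand for the same mice across tissues, and the main tests did not pair by them. RNA samples of the series were not used here, tissue labels were not checked against markers, and sequences were not analysed here.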

Additional observations from a re-analysis of the deposited data

Results flagged for a closer look

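The SSB strand ratio differed among the 6 tissues, with F at 13.56 (exact permutation test), and so did the AP ratio, with F at 9.356. The SSB ratio exceeded the AP ratio of the same sample by 0.2486 on the log2 scale, in 12 of 12 samples.

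Interiors on chromosome X, outside the autosomal comparisons, were read by the same rule. Their 198 interiors had a mean SSB ratio of 1.285 ± 0.147 (SD, n = 12), above 1 and above the autosomal flanks in 12 of 12 libraries. Their AP ratio was 1.081 ± 0.112, above 1 in 10 of 12 libraries.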

How the results depend on the processing

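Of the library ratios recomputed under the alternatives, 302 values kept direction and side of the threshold, 41 lost significance, 6 gained it and none reversed. Of the differences among tissues by length class, 157 kept their side, 47 lost significance and 2 gained it. Values below are log2 ratios unless called F or a count, and what made a value change was not tested except where fewer samples entered. Leaving out PBMCs, liver, or sperm with PBMCs was chosen after seeing the data.

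With 1 value per tissue (n = 6, exact sign-flip test, smallest raw p 0.03125) no ratio of all interiors or of a class and no interior minus flank passed after adjustment. Longest minus shortest class, the difference along the gene and SSB minus AP did. For all interiors and each class every SSB tissue mean lay above 1, so that the raw p was at its smallest value before adjustment. SSB values were 0.289 for all interiors, 0.292, 0.30, 0.294 and 0.220 by class and 0.281 for interior minus flank, and AP values 0.040 for all, 0.039, 0.048 and 0.080 in the 3 longer classes and 0.033 for interior minus flank. Equal depth gave -0.050 (SSB) and 0.052 (AP) for longest minus shortest class. The median over interiors took only those with at least 10 positions in a library. It gave AP values of 0.011 for all, 0.031 for 50-100 kb, 0.011 for interior minus flank, 0.034 along the gene and F of 0.806 across tissues, while F at 20-50 kb could not be computed there. AP at 50-100 kb no longer passed with overlap judged by protein-coding genes only (0.022), without sperm (0.035) or without PBMCs (0.032). Without sperm and PBMCs, AP values were 0.028 for all, 0.024 for 50-100 kb, 0.034 for 100-300 kb and 0.024 for interior minus flank, with F of 3.56 (SSB) and 7.02 (AP) across tissues. AP at 20-50 kb passed with 10 kb left out (0.019), without the densest 1% of interiors (0.023) and without liver (0.028). Sperm minus other tissues passed for SSBs without PBMCs (0.12) and for AP sites without liver (0.027).

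Leaving out the libraries of either number gave, for SSBs, 0.288 to 0.289 for all interiors, 0.287 to 0.298, 0.294 to 0.305, 0.288 to 0.30 and 0.212 to 0.229 by class, -0.086 to -0.058 for longest minus shortest and 0.275 to 0.287 for interior minus flank. For AP sites it gave 0.036 to 0.044 for all, 0.013 to 0.025, 0.036 to 0.043, 0.037 to 0.059 and 0.075 to 0.085 by class, 0.050 to 0.072 for longest minus shortest and 0.024 to 0.042 for interior minus flank. Leaving out single libraries gave F from 9.36 up to 24.4 (without bone marrow replicate 2) in the SSB libraries and from 6.84 up to 67.5 (without liver replicate 2) in the AP libraries.

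The 130 SSB gene calls became 12 with TMM factors (8 on the gene's strand, 4 on the other), 243 with at least 120 positions, 76 without sperm, 47 without sperm and PBMCs, and 81 to 135 without single libraries. The 5 AP calls became 1 with DESeq2, 3 without a filter, 3 without recurrent nucleotides, 2 without sperm, 0 without sperm and PBMCs (206 at an unadjusted p under 0.05, edgeR) and 1 to 5 without single libraries (1 without PBMC replicate 2, 2 without brain replicate 1 or heart replicate 2). Whether the replicate numbers paired samples across tissues could not be settled. Deviations between tissues had r between -0.052 and 0.023 (SSB) and between -0.10 and 0.11 (AP). SSBs and AP sites of the same sample, paired by their labels, gave r between -0.043 and 0.019, so that the check cannot tell. With the replicate block 127 SSB and 5 AP genes were called and F was 11.3 (SSB) and 8.97 (AP), with no call across tissues changed. Without the pairing of assays by sample, SSB minus AP stayed 0.249.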

Other observations

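Positions that recurred were described without a test. For SSBs they were few, 2419 on the gene's strand and 1842 on the other strand over 12 libraries. Nucleotides found in more than 1 SSB library had a ratio of 1.35 ± 0.20 in the interiors (SD, n = 12), against 1.22 ± 0.063 for those found in 1 library. SSB positions with a count above 1, 1390 and 1055 on the strands, had 1.48 ± 0.46, from 0.75 to 2.38. For AP sites, recurrent nucleotides had 1.004 ± 0.055 and positions with a count above 1 had 1.05 ± 0.11, against 1.029 ± 0.023 for nucleotides in 1 library.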
